A study of Danio rerio with 4 samples.

Results

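The genes described here are the melanocortin ligands, the agouti-related antagonist, the melanocortin receptors and their accessory proteins in the brain of adult zebrafish with and without attractin. They were chosen by name, as pomca, pomcb, agrp, mc1r, mc3r, mc4r, mc5ra, mc5rb, mrap2a and mrap2b, and all 10 were found among the 31030 genes of the deposited count table. For 9 of them the table carried the symbol itself. The tenth, mrap2b, was found through its NCBI gene number as LOC101884805, which the table describes as an mrap2b-like gene. The mean count over the libraries reached the minimum of 10 for 9 of the 10 genes, and mc1r, with a mean of 9.25 counts, stayed out of the main fit.

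RNA was sequenced from brains of zebrafish at 4 months post fertilization (mpf). There were 4 libraries, 1 for each sex of wild-type and of atrn-/- fish, and they are listed below in a fixed order, males before females and wild type before mutant. The atrn-/- fish carried the nju70 allele, a small deletion made with CRISPR/Cas9 that was predicted to truncate the protein, and a single line was used. The labels name no treatment, and the sources differ on the brains in a library, described as several for each group in one place and as a single one in another.

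Pro-opiomelanocortin (POMC) is a prohormone that is cut into melanocyte-stimulating hormones and adrenocorticotropic hormone. In the hypothalamus these peptides act on the melanocortin receptors Mc3r and Mc4r, which couple to cyclic AMP, and in mammals they lower food intake. Agouti-related peptide (AgRP) comes from a separate group of hypothalamic neurons and opposes them at the same receptors, and the accessory protein Mrap2 tunes receptor signaling. Attractin is the membrane protein known in mice as mahogany, which is needed for the agouti protein to act on Mc1r in the skin. The question put to these libraries was whether the genes of the brain melanocortin system differ in level when attractin is lost.

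Libraries held 16100263 (wild type) and 16254750 (atrn-/-) counts in males, and 8654693 and 13116358 in females. Levels are given as counts and as CPM, the count per 1000000 counts of the library after adjusting its total with edgeR's TMM factor. At these depths a count of 3 stood for 0.186 to 0.342 CPM. The female wild-type library, the shallowest, also stood apart in its tissue content. Its summed level of 20 skeletal muscle genes was 5389 CPM, against 159.2 to 694.0 CPM in the other libraries. Summed levels of 10 blood genes were 3169 and 2253 CPM in the wild-type libraries and 1133 and 1137 CPM in the mutant libraries, in the order male, female. Summed levels of 13 neuronal genes lay between 10460 and 11750 CPM in all 4 libraries. The part of these differences in the results below was not tested. The targeted gene, atrn, had 808 counts in wild-type and 462 in atrn-/- males, and 662 in wild-type and 423 in atrn-/- females. It was lower in the mutant of each sex, with a log2 ratio of -0.81 (95% interval -0.99 to -0.65) in males and -1.22 (-1.40 to -1.05) in females. The fit over both sexes gave it a log2 fold change of -1.02 (SE 0.15, adjusted p = 0.0752 by the quasi-likelihood test of edgeR, Benjamini-Hochberg adjusted). That adjusted p lay between 0.00087 and 0.626 over 10 alternatives, 3 of which passed the threshold of 0.05, namely no filter on low counts, a DESeq2 Wald test and the fit without the male wild type.

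For each sex, a genotype had 1 library. The ratio of mutant over wild type is therefore a description of those libraries without a p-value, and its 95% interval covers counting error only. The ratio was computed with a prior count of 2 added in proportion to library size, and the interval with none. Across the 19943 genes tested, this interval lay entirely below 0 for 21.3% and above 0 for 20.3% of genes in males, and for 18.4% and 18.4% in females, so libraries differed by more than counting error for a large share of genes. Over both sexes, the genotypes were compared as 2 mutant and 2 wild-type libraries, with a term for sex. That fit leaves 1 residual degree of freedom per gene, which is how far the genotype ratio differs between the sexes. A gene that changes differently in the 2 sexes thus widens its own error and is less readily called. Nothing in the labels states that the libraries are separate pools of fish. The p-values rest on that difference between the sexes and on error shared across genes, not on a spread between replicate libraries. In whole-brain RNA, fewer cells of a type and less RNA per cell cannot be told apart.

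Over both sexes, 0 of the 9 melanocortin genes tested passed the adjusted threshold for genotype by edgeR's quasi-likelihood test, against a background of 0.211% of all genes tested (42 of 19943, with 13 higher and 29 lower in the mutants). Of those 29, 8 were in the list of blood genes and 2 in that of skeletal muscle genes. At an unadjusted p under 0.05 (edgeR), 0 of the 9 melanocortin genes passed, against 1809 of all genes. The DESeq2 Wald test also called 0 of the 9. The lowest adjusted p among them was 0.621, for mrap2b. Their fitted log2 fold changes lay between -0.66 and 0.36, with 4 above 0 and 5 below, and with a median of -0.11 against -0.002 over all genes. At a background this low, a count of 0 among 9 genes does not set them apart from other genes. The summed level of all 10 genes was 58.83 CPM in wild-type and 57.61 in atrn-/- males, and 59.66 in wild-type and 55.75 in atrn-/- females. Of this, mrap2a alone held 24.0, 24.6, 23.2 and 19.4 CPM in the same order. The sum therefore says little about genes with few counts, such as agrp.

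**Figure D1:**
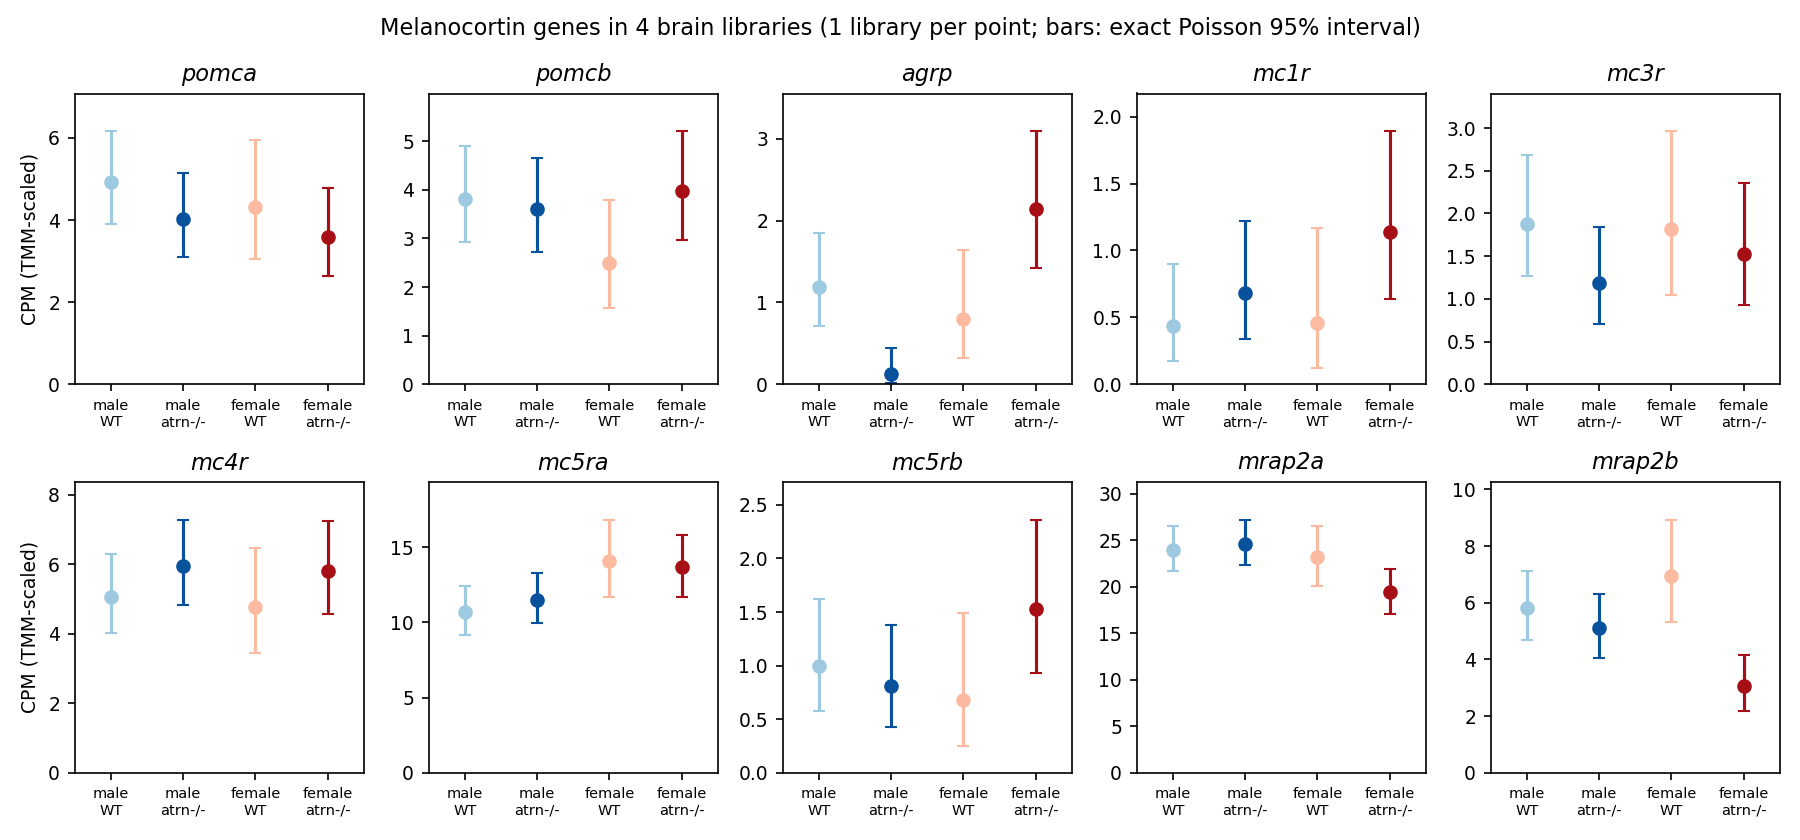
Level of each of the 10 melanocortin genes in CPM (vertical axis, starting at 0 and scaled to each gene) in the 4 libraries (horizontal axis). Each point is 1 library and each bar its exact Poisson 95% interval, which covers counting error only. The point of agrp in the male mutant, at 0.124 CPM, lies below the other 3 (0.797 to 2.14 CPM), and that of mrap2b in the female mutant, at 3.05 CPM, lies below 5.09 to 6.94 CPM.

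Zebrafish have 2 copies of the POMC gene. The copy pomca, which is the one expressed in hypothalamic neurons and the pituitary, had 79 counts in wild-type and 65 in atrn-/- males, and 38 in wild-type and 47 in atrn-/- females, or 4.94, 4.03, 4.33 and 3.58 CPM. The 2 mutant libraries were the lowest, but each step between neighbors in this order was within counting error. Relative to wild type, the log2 ratio of the mutant was -0.28 (95% interval -0.79 to 0.20) in males and -0.26 (-0.92 to 0.38) in females. The fitted change over both sexes was -0.28 (SE 0.31, adjusted p = 0.833, edgeR). It was below 0 in all 10 alternatives, between -0.37 and -0.18, and passed the threshold in none of them. The difference lay within the error. The counting intervals of the 2 sexes leave out variation between fish, so they set no bound on a genotype change.

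The second copy, pomcb, had 61, 58, 22 and 52 counts in that order of libraries, or 3.81, 3.60, 2.50 and 3.97 CPM. The level in the female wild type was the lowest, and the other 3 were close together. The log2 ratio was -0.08 (-0.63 to 0.46) in males and 0.63 (-0.08 to 1.45) in females, and the fitted change was 0.26 (SE 0.37, adjusted p = 0.881, edgeR). Without the female wild type the fitted change was -0.01, so its sign rested on that library. Among the counts of pomca and pomcb together, pomcb had 43.6% (exact binomial 95% interval 35.2 to 52.2) in the male wild type and 47.2% (38.1 to 56.4) in the male mutant. In females it had 36.7% (24.6 to 50.1) in the wild type and 52.5% (42.2 to 62.7) in the mutant. The share was higher in the mutant of each sex and the intervals overlapped in both.

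The pituitary makes far more POMC than the hypothalamus does, so its hormone genes were read beside pomca. Of 17 pituitary genes, 16 were in the table and 3 had enough counts to be tested. Most of the defining hormones were at or near 0. Growth hormone, gh1, had 0, 1, 2 and 0 counts, prolactin, prl, had 6, 4, 0 and 4, and the shared glycoprotein hormone subunit cga had 1, 4, 1 and 0, given for males and then females, with the wild type before the mutant in each. The genes smtlb, tshba, fshb and lhb had 0 to 5 counts per library. The second prolactin gene of the list, prl2, had 16, 29, 12 and 49 counts in the same order. Whether the RNA of prl2 came from pituitary cells was not tested. The log2 ratio of prl2 was 0.76 (-0.08 to 1.83) in males and 1.36 (0.52 to 2.50) in females, and its fitted change was 1.14 (SE 0.47, adjusted p = 0.541, edgeR). Of the 3 genes of this list that were tested, prl2 was the 1 with a fitted change above 0. The other 2 were below 0, the lowest at -0.445. In each sex the counting interval lay below 0 for 1 of the 3. The corticotrope factor tbx19, which switches on POMC in the pituitary, had 9, 3, 4 and 5 counts. The number of genes at 0 in this list was 3, 1, 5 and 4 in the same order. In the reference annotation of assembly GRCz12tu, pomca overlaps the protein-coding gene LOC100537549 and pomcb overlaps si:ch211-203k16.3. These had 3 to 19 and 15 to 29 counts per library. It is not stated whether strand was used in counting, so reads in the overlaps cannot be told apart.

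AgRP varied more than any other melanocortin gene in these libraries. The gene agrp had 19 counts in wild-type and 2 in atrn-/- males, and 7 in wild-type and 28 in atrn-/- females, or 1.19, 0.124, 0.797 and 2.14 CPM. In males the mutant was the lower library, and in females it was the higher one. Relative to wild type, the mutant had a log2 ratio of -2.30 (95% counting interval -6.41 to -1.21) in males and 1.27 (0.19 to 2.86) in females. Between the 2 mutants, the female exceeded the male by 3.07 on the log2 scale (2.12 to 7.22), while between the wild types the female minus male difference was -0.50 (-2.07 to 0.74). The highest level, in the female mutant, was 17.22 times the lowest, in the male mutant. This ratio used no prior count, unlike the 3.07 on the log2 scale, and rests on 2 counts in the male mutant. The same ratio was 1.39 for the median gene and 1.24 to 2.61 for the other 9 melanocortin genes.

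Over both sexes, agrp showed no shared direction. Its fitted change was -0.45 with an SE of 1.02 (adjusted p = 0.935, edgeR). The fit turned to 0.45 without the male wild type, to 1.07 without the male mutant and to 0.11 without the sex term, and it was -0.12 without the female wild type and -2.94 without the female mutant. The fits without a library also lack the sex term. The prior count also moved the male ratio, from -2.93 with 0.5 to -1.66 with 5, and the female ratio from 1.38 to 1.10. With a single library per sex and genotype the difference between the sexes was not tested. A rule of at least 2-fold with a counting interval on 1 side of 0 was met by agrp as lower in males, where 1 of the 9 genes met it against 2.36% of all genes. It was met by agrp as higher in females, where again 1 of 9 met it against 2.74%. Both together were met by 39 of 19943 genes, or 0.196%, with agrp as the 1 melanocortin gene among them.

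Shares within a library do not depend on how it was scaled. Among the counts of pomca, pomcb and agrp, agrp had 11.9% (19 of 159, exact binomial 95% interval 7.35 to 18.0) in the male wild type and 1.6% (2 of 125, 0.194 to 5.66) in the male mutant. In females it had 10.4% (7 of 67, 4.3 to 20.3) in the wild type and 22.0% (28 of 127, 15.2 to 30.3) in the mutant. The intervals of the males did not overlap, and those of the females did. The wild-type shares in the 2 sexes were close to each other, and the 2 mutant libraries lay on either side of them.

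**Figure D2:**
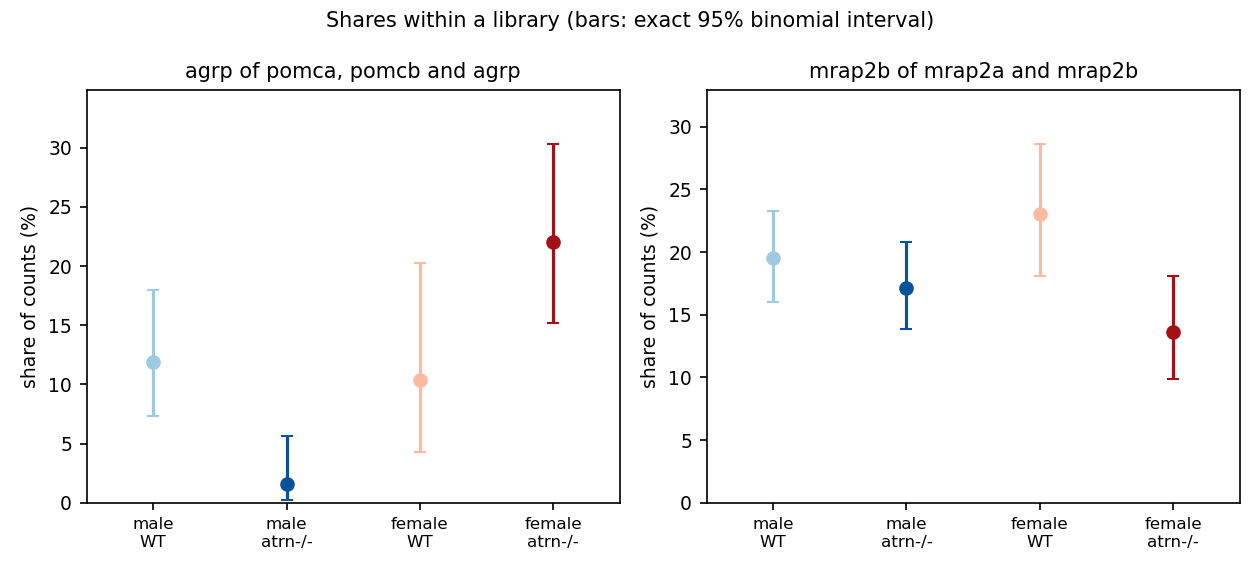
Share of counts (vertical axis, percent, starting at 0) in each of the 4 libraries (horizontal axis), with exact binomial 95% intervals as bars. On the left, agrp among the counts of pomca, pomcb and agrp was 1.6% in the male mutant and 22.0% in the female mutant, against 11.9% and 10.4% in the wild types. On the right, mrap2b among the counts of mrap2a and mrap2b was lowest in the female mutant, at 13.6%.

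In a subset of hypothalamic genes, as for agrp, the mutant was lower than the wild type in males and higher in females. Others did not have this pattern. Of 24 hypothalamic marker genes, 22 were in the table, 20 were tested and none was at 0 in any library. Their median log2 ratio was -0.41 in males and 0.09 in females, against -0.007 and 0.001 over all genes. The counting interval lay below 0 in males for 11 of the 20, against 21.3% of all genes, and above 0 in females for 7, against 18.4%. It lay above 0 in males for 2, against 20.3% of all genes, and below 0 in females for 4, against 18.4%. For 5 of the 20 it lay below 0 in males and above 0 in females, against 3.24% of all genes. These were hmx3a, nkx2.4a, nkx2.4b, pmch and rx3. Melanin-concentrating hormone, pmch, another feeding peptide, had 90 counts in wild-type and 59 in atrn-/- males, and 25 in wild-type and 101 in atrn-/- females. Its log2 ratio was -0.60 in males and 1.39 in females. The hypothalamic homeobox gene nkx2.4b had 88, 48, 30 and 92 counts in the same order, with log2 ratios of -0.85 and 1.01. The retinal and hypothalamic homeobox gene rx3 had 18, 7, 6 and 23 counts, with log2 ratios of -1.13 (-2.88 to -0.05) and 1.19 (0.02 to 2.95). The table gives the same description to nkx2.1, nkx2.4a and nkx2.4b, so reads may be shared among these related genes. The summed level of the list was 552.7, 502.7, 356.7 and 381.3 CPM for males and then females, wild type first. A large part of that sum came from oxt, which was lower in females and is described below. The sum is therefore no measure of the hypothalamic content of a library. Among the counts of agrp and pmch, agrp had 17.4% in wild-type and 3.28% in atrn-/- males, and 21.9% and 21.7% in females. Among those of agrp and nkx2.4b it had 17.8% and 4.0% in males, and 18.9% and 23.3% in females. Set against these genes, the share of agrp was lower in the male mutant and close between the female libraries. The exact binomial intervals of the male libraries overlapped in both cases. With pmch they were 10.8 to 25.9% in the wild type and 0.4 to 11.3% in the mutant. With nkx2.4b they were 11.0 to 26.3% and 0.488 to 13.7%. Those of the female libraries overlapped as well. The shares in the male mutant rest on 2 counts of agrp. Both pmch and nkx2.4b were named for being lower in the mutant in males and higher in females. The closeness in females partly repeats that choice. In CPM, pmch was lowest in the female wild type and nkx2.4b in the male mutant. The part of the hypothalamic content of each library in the levels of agrp was not tested.

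The genes whose level followed agrp most closely over the 4 libraries were found by the Euclidean distance between log2 CPM profiles, each centered on its mean. The nearest were LOC103911787 (distance 0.498, with 43, 8, 12 and 46 counts), LOC101882521 (0.82, with 20, 2, 3 and 26 counts) and the T-box gene tbx2a (0.823, with 43, 13, 12 and 75 counts). The first 2 are uncharacterized. Among 19942 genes, rx3 ranked 17 in closeness to agrp, nkx2.4b ranked 99, tbx3a ranked 299 and pmch ranked 324. Since rx3, nkx2.4b and pmch were named above for their pattern in these same libraries, their ranks repeat that choice. Of the 20 hypothalamic markers tested, 7 lay within the closest 10% of genes and 6 beyond 80%. The latter were gnrh3 at 19483, oxt at 18961, sim1a at 18566, npvf at 18263, galn at 18009 and vipb at 16915. The factor tbx3a, which in mice maintains the identity of AgRP and POMC neurons, had 115, 80, 46 and 117 counts. With 4 libraries many genes share any given profile, and the distances are a description.

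The 2 POMC copies did not share the wide range of agrp. The profile of agrp ranked 19590 of 19942 in closeness to pomca and 19537 to pomcb, at distances of 2.31 and 2.22. The distance grows with the range of a gene's levels, so these ranks do not by themselves show a different pattern. Measured from agrp, similar distances were common, and crhb at 2.29 ranked 9799. The nearest profiles to pomca were those of cyba, acot9.1 and cfl1, at distances of 0.00254, 0.0262 and 0.0344. The nearest to pomcb were pax6b, plk4 and prdx1, at 0.0211, 0.0216 and 0.0304. Of these, cyba encodes a subunit of the NADPH oxidase and pax6b a homeobox factor of the brain and eye. Each step in the order of levels of pomca and pomcb was within counting error, so these neighbors say little about either gene.

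**Figure D3:**
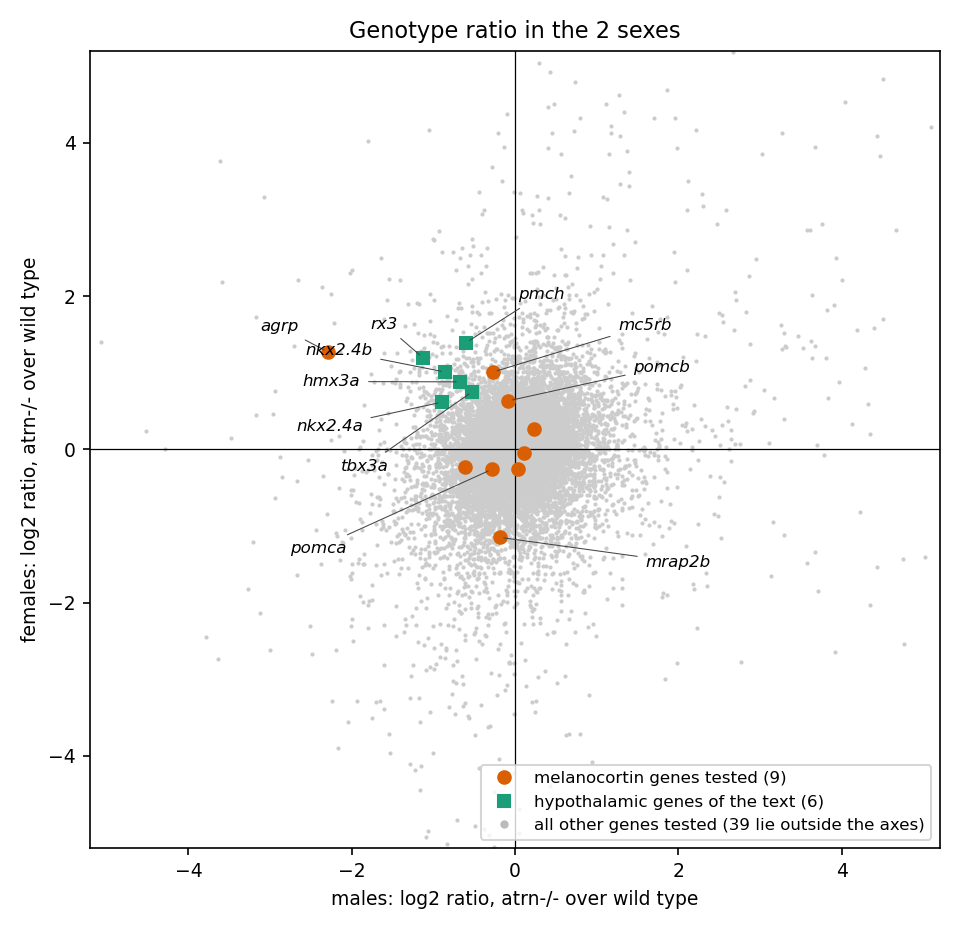
Log2 ratio of atrn-/- over wild type in males (horizontal axis) and in females (vertical axis) for all genes tested, with 39 genes outside the axes. Orange circles mark the 9 melanocortin genes tested. Green squares mark 6 genes, namely tbx3a and the hypothalamic markers that were lower in males and higher in females beyond counting error. Other hypothalamic markers of the text, such as gnrh3, oxt and sim1a, are not marked. The point of agrp lies at -2.30 and 1.27, in the same quadrant as pmch (-0.60 and 1.39) and rx3 (-1.13 and 1.19), while pomca lies near the middle.

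The receptor Mc4r carries the effect of melanocortins on feeding in fish and mammals, and Mc3r is the other neural receptor. The gene mc4r had 81 counts in wild-type and 96 in atrn-/- males, and 42 in wild-type and 76 in atrn-/- females, or 5.06, 5.95, 4.78 and 5.80 CPM. Both mutant levels were above both wild-type levels, by amounts within counting error. The log2 ratio was 0.23 (-0.21 to 0.68) in males and 0.27 (-0.28 to 0.86) in females. The fitted change was 0.25 (SE 0.27, adjusted p = 0.831, edgeR), and it stayed between 0.22 and 0.30 in 10 alternatives without passing the threshold. With a ratio of 1.24 between its highest and lowest level, mc4r was the steadiest of the 10 genes.

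The gene mc3r had 30, 19, 16 and 20 counts in that order of libraries, or 1.88, 1.18, 1.82 and 1.53 CPM. Both mutant levels were below both wild-type levels. Mutant over wild type, it had a log2 ratio of -0.61 (-1.58 to 0.21) in males and -0.24 (-1.28 to 0.79) in females, and the fitted change was -0.47 (SE 0.50, adjusted p = 0.831, edgeR). Among the counts of mc3r and mc4r, mc4r had 73.0% (63.7 to 81.0) in the male wild type, 83.5% (75.4 to 89.7) in the male mutant, 72.4% (59.1 to 83.3) in the female wild type and 79.2% (69.7 to 86.8) in the female mutant. The share was higher in the mutant of each sex, with intervals that overlapped, and the difference between the shares was not tested. In the reference annotation mc3r overlaps a long non-coding RNA.

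Mc5r is found in many tissues, including the brain in fish, and zebrafish have 2 copies. The copy mc5ra had 171, 186, 124 and 179 counts in that order of libraries, or 10.7, 11.5, 14.1 and 13.7 CPM. The 2 genotypes were close in each sex, with log2 ratios of 0.11 (-0.20 to 0.42) in males and -0.05 (-0.39 to 0.29) in females. The fitted change was 0.03 (SE 0.20, adjusted p = 0.979, edgeR), the smallest of the 9 genes. Its sign changed to -0.17 without the male wild type and to -0.10 without the female mutant. Both female levels lay above both male levels, and the fitted female minus male difference was 0.32 (SE 0.20, adjusted p = 0.739, edgeR).

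The copy mc5rb had 16, 13, 6 and 20 counts in the same order of libraries, or 1.00, 0.806, 0.683 and 1.53 CPM. In males the log2 ratio was -0.27 (-1.49 to 0.84), and in females it was 1.01 (-0.21 to 2.76). The fitted change was 0.36 (SE 0.65, adjusted p = 0.91, edgeR), and it was -0.09 without the female mutant. At 6 to 20 counts per library, the intervals reach past a 2-fold fall in males and past a 2-fold rise in females. The reference gene table lists the names of mc5ra and mc5rb as synonyms of each other, and the symbols are used as the count table gives them. In the reference annotation mc5rb overlaps mc2r, the receptor of adrenocorticotropic hormone, which had 0 counts in all 4 libraries.

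Mc1r is the receptor of pigment cells, through which the agouti protein sets coat color in mice. The gene mc1r had 7 counts in wild-type and 11 in atrn-/- males, and 4 in wild-type and 15 in atrn-/- females, or 0.438, 0.682, 0.455 and 1.14 CPM. Its log2 ratio was 0.50 (-0.86 to 2.25) in males and 1.10 (-0.32 to 3.38) in females. Without the filter on low counts its fitted change was 0.96 (adjusted p = 0.948, edgeR). The mutant was higher in each sex by amounts within counting error. The summed level of 15 pigment cell genes was 37.76, 41.55, 43.38 and 41.79 CPM in the same order of libraries.

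Mrap2 is an accessory protein that binds melanocortin receptors and, in zebrafish, changes the response of Mc4r to its ligands. The copy mrap2a is known from larvae, where it dampens Mc4r, and mrap2b from later stages, where it raises the sensitivity of Mc4r. The gene mrap2a had 384 counts in wild-type and 397 in atrn-/- males, and 204 in wild-type and 254 in atrn-/- females, or 24.0, 24.6, 23.2 and 19.4 CPM. The first 3 levels were close together, and the female minus male difference between the mutants was -0.34 on the log2 scale (counting interval -0.58 to -0.12). The ratio of mutant over wild type was 0.04 (-0.17 to 0.24) in males and -0.26 (-0.53 to 0.01) in females. The fitted change was -0.11 (SE 0.17, adjusted p = 0.891, edgeR), and it was 0.06 without the female mutant.

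The gene mrap2b had 93 counts in wild-type and 82 in atrn-/- males, and 61 in wild-type and 40 in atrn-/- females, or 5.81, 5.09, 6.94 and 3.05 CPM. The female mutant stood below the other 3 libraries. In the order of levels, its step to the male mutant was beyond counting error and the steps among the other 3 were not. Mutant over wild type, it had a log2 ratio of -0.19 (-0.64 to 0.25) in males and -1.15 (-1.80 to -0.59) in females. In females mrap2b was the 1 gene of the 9 that was at least 2-fold lower in the mutant with an interval below 0, against 4.11% of all genes. In males 0 of the 9 genes were at least 2-fold higher by the same rule, against 2.63% of all genes. The fitted change of mrap2b was -0.66 (SE 0.34, unadjusted p = 0.0906, adjusted p = 0.621, edgeR). It was below 0 in all 10 alternatives, between -1.06 without the male mutant and -0.32 without the female mutant, with adjusted p between 0.605 and 1.0. It was -0.50 without the female wild type, the library with the high muscle signal.

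Within the pair, mrap2b had 19.5% of the counts of mrap2a and mrap2b (exact binomial 95% interval 16.0 to 23.3) in the male wild type and 17.1% (13.9 to 20.8) in the male mutant. It had 23.0% (18.1 to 28.6) in the female wild type and 13.6% (9.9 to 18.1) in the female mutant. The share was lower in the mutant of each sex, and the 2 female intervals met at 18.1%.

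**Figure D4:**
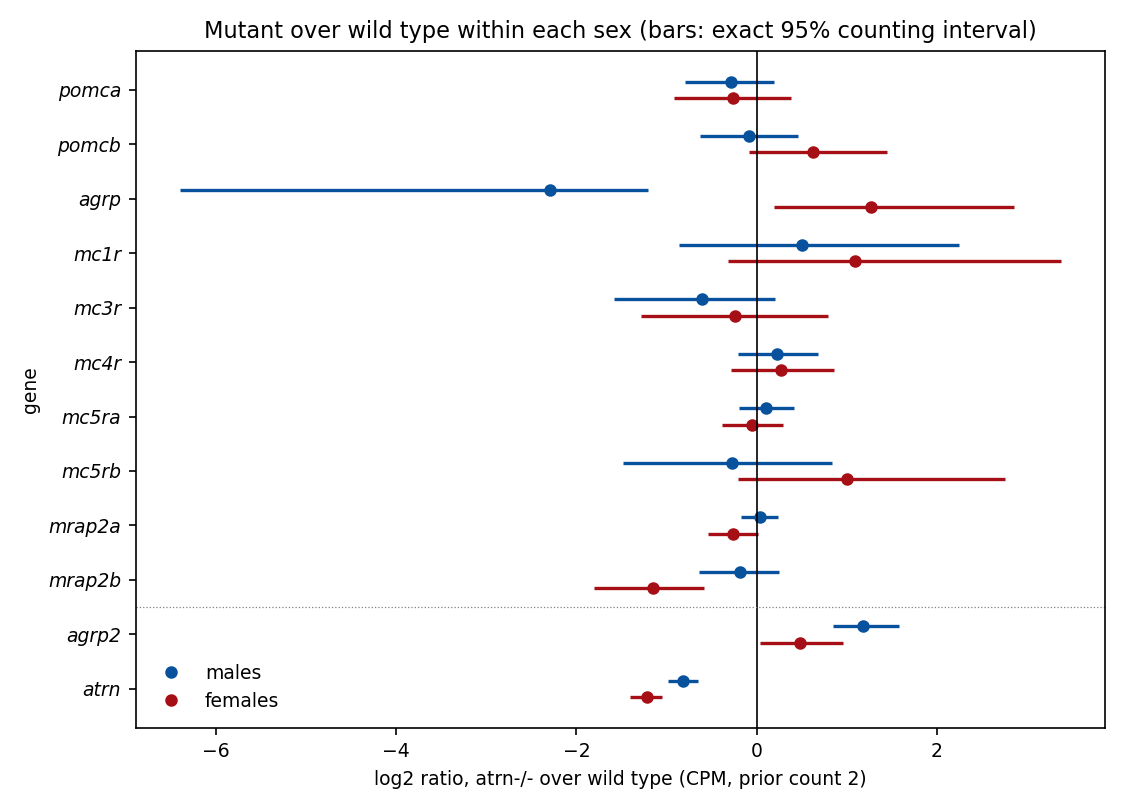
Log2 ratio of atrn-/- over wild type (horizontal axis) within males (blue) and within females (red) for the 10 melanocortin genes and, below the dotted line, agrp2 and atrn (vertical axis). Points were computed with a prior count of 2 and bars are exact 95% counting intervals. Intervals on 1 side of 0 were those of agrp in both sexes, in opposite directions, of mrap2b in females (-1.15), and of agrp2 and atrn in both sexes.

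Across the sexes, 0 of the 9 melanocortin genes tested passed the threshold by edgeR's quasi-likelihood test, against 0.140% of all genes (28 of 19943, with 20 higher and 8 lower in females). Of those 20, 9 were in the list of skeletal muscle genes, and of those 8, 2 were in the list of blood genes. At an unadjusted p under 0.05 (edgeR), 0 of the 9 melanocortin genes passed against 1509 of all genes, and the DESeq2 Wald test also called 0. The fitted female minus male differences lay between -0.22 for mrap2b and 1.38 for agrp (SE 1.03, adjusted p = 0.781). The lowest adjusted p was 0.739, for mc5ra. The sign of this difference depended on a single library for pomcb, mc3r, mc4r, mc5rb and mrap2b.

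The remaining melanocortin genes were read from a list of 10, of which 9 were in the table and 7 were tested. None passed the threshold for genotype, against 0.211% of all genes. An unadjusted p under 0.05 (edgeR) was found for 2 of the 7, atrn and agrp2, against 1809 of all 19943 genes. The gene agrp2, now named asip2b, is an agouti family peptide that in zebrafish is made in the pineal gland and regulates background adaptation. It had 91 counts in wild-type and 212 in atrn-/- males, and 61 in wild-type and 128 in atrn-/- females, or 5.69, 13.1, 6.94 and 9.76 CPM. Both mutant levels were above both wild-type levels. The log2 ratio was 1.19 (0.85 to 1.58) in males and 0.48 (0.04 to 0.96) in females. The fitted change was 0.87 (SE 0.26, unadjusted p = 0.012, adjusted p = 0.382, edgeR), and adjusted p lay between 0.147 and 1 over 10 alternatives. In the reference annotation it overlaps the protein-coding gene xpr1b.

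As agrp2 was, the pineal and photoreceptor genes as a list were high in the male mutant and, to a lesser degree, in the female mutant. Of 21 such genes, agrp2 among them, all were in the table and 14 were tested. Their summed level was 64.39 CPM in wild-type and 206.1 in atrn-/- males, and 62.39 in wild-type and 113.0 in atrn-/- females. The median log2 ratio was 2.29 in males and 0.52 in females. The counting interval lay above 0 for 13 of the 14 in males, against 20.3% of all genes. In females it did so for 6, against 18.4%. The pineal opsin exorh had 201, 1187, 97 and 494 counts in the same order, with a fitted change of 2.19 (adjusted p = 0.0225, edgeR). It was the 1 of the 14 that passed, and it passed in 6 of 10 alternatives, with adjusted p up to 0.169. It was lost without the sex term and without the male wild type, the male mutant or the female wild type in turn, and fits without a library also had 1 term. The number of genes at 0 in this list was 2, 1, 4 and 3. The part of pineal content in the level of agrp2 was not tested.

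**Figure D5:**
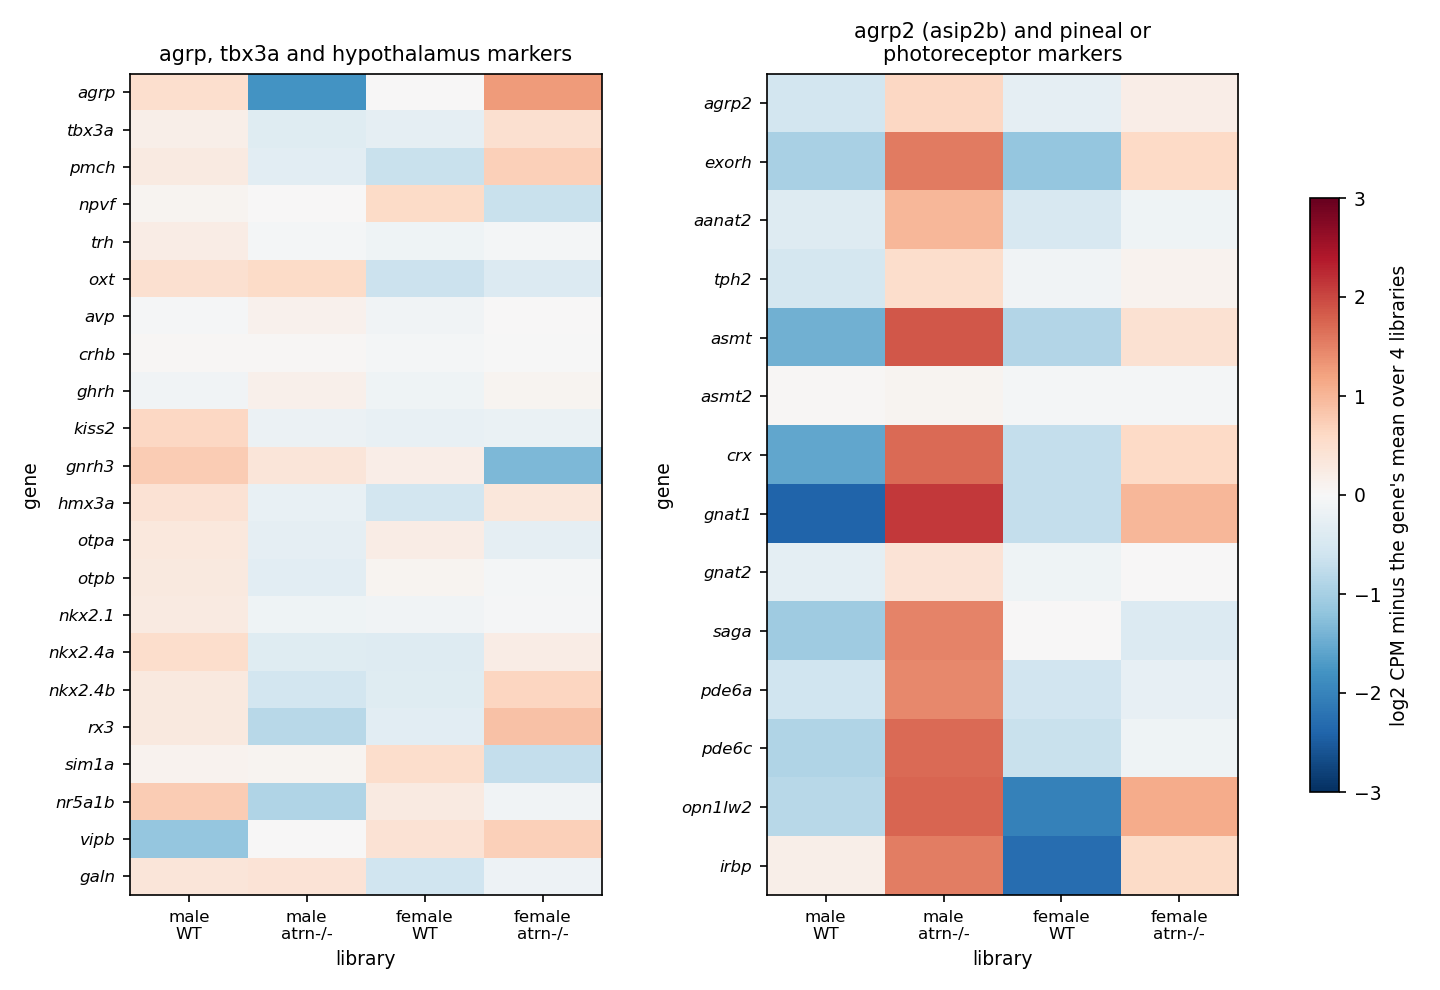
Log2 CPM minus each gene's mean over the 4 libraries (color, from blue for below to red for above) for agrp, tbx3a and 20 hypothalamus markers on the left and for agrp2 and 13 other pineal or photoreceptor markers on the right. Rows are genes and columns are libraries. On the left, agrp, nkx2.4b and rx3 were lowest in the male mutant and highest in the female mutant. The gene pmch was lowest in the female wild type and highest in the female mutant. On the right, each gene was highest in the male mutant, including agrp2 with 13.1 CPM.

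The other agouti peptide of the list, asip1, which sets the dorsal to ventral pigment pattern of the skin, had 4, 3, 2 and 0 counts in that order of libraries. Attractin-like and mahogunin genes, which are related to attractin or act beside it in mice, were read as well. The gene atrnl1b had 2830, 2956, 1532 and 2245 counts, with log2 ratios of 0.05 in males and -0.03 in females. The ubiquitin ligase gene mgrn1a had log2 ratios of 0.15 and -0.01, and mgrn1b had -0.15 (-0.23 to -0.08) and -0.18 (-0.27 to -0.09), with adjusted p = 0.896 and 0.685 (edgeR). The second attractin-like gene, atrnl1a, had 108, 204, 144 and 204 counts, with log2 ratios of 0.89 (0.56 to 1.26) in males and -0.07 (-0.39 to 0.24) in females (adjusted p = 0.71, edgeR). It was named after its values were seen.

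Of the enzymes that cut and finish POMC peptides and their partners, 9 were tested. The threshold for genotype was passed by 0 of them, against 0.211% of all genes. An unadjusted p under 0.05 (edgeR) was found for 0, against 1809 of all 19943 genes. Carboxypeptidase E, cpe, which trims the cut peptides, had log2 ratios of 0.12 in males and 0.00 in females. The amidating enzyme pam had -0.02 and 0.02. The convertase inhibitor pcsk1nl had -0.12 (-0.16 to -0.09) and 0.37 (0.33 to 0.42), with a fitted change of 0.12 (adjusted p = 0.832, edgeR).

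Of 20 tested factors and hormone inputs of POMC and AgRP neurons, 0 passed for genotype, against 0.211% of all genes. An unadjusted p under 0.05 (edgeR) was found for 1 of them, against 1809 of all 19943 genes. The median log2 ratio of the 20 was -0.31 in males and -0.004 in females. The list shares nr5a1a, nr5a1b and the homeobox genes nkx2.1, nkx2.4a, nkx2.4b, otpa and otpb with the hypothalamic list, but not rx3 or hmx3a. The homeobox gene otpa, needed for neuroendocrine neurons of the hypothalamus, had 1020, 692, 527 and 555 counts. It was lower in the mutant of each sex, with log2 ratios of -0.57 (-0.71 to -0.43) and -0.50 (-0.68 to -0.33) and a fitted change of -0.54 (SE 0.12, adjusted p = 0.237, edgeR). The insulin receptor gene insra had log2 ratios of -0.26 and -0.01, and stat3, which relays leptin signals, had 0.18 and 0.22.

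Among 27 genes of receptor signaling and of neurons downstream of Mc4r, 0 passed for genotype, against 0.211% of all genes. Their median fitted change was -0.06. Of the 27, 2 had an unadjusted p under 0.05 (edgeR), against 1809 of all 19943 genes. The protein kinase A subunit gene prkacab had log2 ratios of 0.07 in males and 0.11 in females, and ntrk2a, the receptor of brain-derived neurotrophic factor, had 0.06 and 0.17. For sex, 1 of the 27 passed, and 0 passed in each of the other pathway lists, against 0.140% of all genes. This was oxt, the oxytocin family peptide of Mc4r-bearing hypothalamic neurons in mammals, with 3630 and 3901 counts in the male libraries and 911 and 1608 in the female libraries, wild type first. It was lower in females by a fitted -1.05 (SE 0.11, adjusted p = 0.0295, edgeR). It passed in 6 of 10 alternatives, with adjusted p up to 1, and did not pass without the genotype term or without the male wild type, the male mutant or the female wild type in turn, fits that also had 1 term.

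Among 15 appetite peptides and 15 stress axis genes tested, 0 and 0 passed for genotype, against 0.211% of all genes. Neuropeptide Y, npy, which AgRP neurons release in mammals, had 971, 1105, 565 and 742 counts and log2 ratios of 0.17 (0.05 to 0.30) in males and -0.18 (-0.34 to -0.02) in females. The anorexigenic peptide gene cart2 had 0.01 and 0.00, and nucb2a, the nesfatin precursor, had -0.06 and -0.12. The stress axis drives POMC in the pituitary and is restrained by glucocorticoids. Of its 15 genes tested, 3 had an unadjusted p under 0.05 (edgeR), against 1809 of all 19943 genes. The immediate early factor nr4a1, which activates POMC in pituitary cells, had 774, 435, 312 and 222 counts. Its log2 ratio was -0.84 (-1.02 to -0.67) in males and -1.06 (-1.32 to -0.82) in females, with a fitted change of -0.95 (SE 0.15, adjusted p = 0.0929, edgeR). It passed in 1 of 10 alternatives, without a filter on low counts, at an adjusted p of 0.00311. The glucocorticoid-induced gene fkbp5 had 0.68 (0.64 to 0.72) and 0.22 (0.16 to 0.27), with an adjusted p = 0.367. The glucocorticoid receptor gene nr3c1 had -0.12 and -0.08, and crhbp, which binds corticotropin-releasing hormone, had 0.37 and 0.07.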

How the data were processed

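Total RNA of zebrafish brain at 4 mpf was sequenced in 4 libraries. The deposited values are raw read counts for each gene, as the authors left them before any normalization. The study's methods name MapSplice, RPKM and EB-Seq, whereas the submitters' processing notes name HISAT2 and the build GRCz10. The counting program, annotation and use of strand are not given in the sources used here.

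From the deposited counts, genes with a mean of at least 10 over the libraries were kept (19943 of 31030), scaled by TMM and tested with edgeR 4.0.16 in R 4.3.3 (genotype and sex as terms, Benjamini-Hochberg adjustment, threshold 0.05). Log2 ratios used a prior count of 2. Intervals are exact Clopper-Pearson or Poisson 95% intervals and cover counting error only. The fit was tested on simulated data. Alternatives were total counts, DESeq2 1.42.0 size factors and its Wald test, no filter, a mean of at least 50 counts, 1 term only, prior counts of 0.5 and 5, and each library left out. Python 3.11.15 with numpy 2.4.6, pandas 2.3.3, scipy 1.17.1 and matplotlib 3.10.9 was used.

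The members, gene lists and tests were chosen with earlier results of these data known. Of each pathway list, the text names the 3 genes highest in mean CPM, any that passed the threshold, and any at least 1.5-fold changed the same way in both sexes with intervals excluding 0. Marker genes, atrnl1a and genes named for their pattern were chosen after their values were seen. Overlaps were read from a gene table of GRCz12tu, so no coordinates are given. Transcript lengths were not used here, so levels of different genes are not compared, and the shares among the counts of a few genes are compared between libraries only. The summed level of the pituitary list is not reported here.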

Additional observations from a re-analysis of the deposited data

Results flagged for a closer look

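For agrp, the log2 ratio between mutant and wild type differed between the sexes by 3.57 (female minus male), since it was -2.30 in males and 1.27 in females. The ratio of rx3 differed in the same way by 2.32, from -1.13 to 1.19. In each case the library of the male mutant lay below that of the male wild type and the library of the female mutant lay above that of the female wild type. With 1 library per sex and genotype these differences were not tested. The lowest counts behind them were 2 for agrp, in the male mutant, and 6 for rx3, in the female wild type.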

How the results depend on the processing

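The count of melanocortin genes that passed the threshold was 0 for genotype and for sex under every alternative run, with 9 genes tested, 10 without the filter on low counts and 5 under the stricter filter of 50 counts. The number of all genes called moved. For genotype it was 42, and it was 294 without the filter, 93 by the DESeq2 Wald test, 5 with 1 term only and between 4 and 56 with each library left out (27 without the female wild type). For sex it was 28, and it was 132 without the filter, 1 with 1 term only and between 1 and 78 with each library left out. Of the values of single melanocortin genes under the alternatives, 237 kept their direction and 15 changed sign. The genotype change of agrp became 0.11 with 1 term only, and with each library left out it ranged from -2.94 to 1.07. With each library left out, that of mc5ra ranged from -0.17 to 0.24, pomcb from -0.01 to 0.59, mc5rb from -0.09 to 0.82 and mrap2a from -0.29 to 0.06. The sex difference ranged from -0.56 to 0.10 for pomcb, from -0.17 to 0.50 for mc3r, from -0.20 to 0.07 for mc4r, from -0.39 to 0.75 for mc5rb and from -0.84 to 0.36 for mrap2b. The cause was not tested. The sex term serves as a block, and 1 term only is the fit without it. No paired analysis was possible because the labels give 1 library per group, so no replicate numbers could be matched beyond this. Fits without a library used 1 term and assume that a lone library varies like the others. Depth limits agrp, mc1r and mc5rb most, at 2 to 28 counts per library.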
